A study of Homo sapiens with 27 samples.

Results

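The ribosome footprints of THP-1 macrophage-like cells were compared between 3 h of lipopolysaccharide (LPS) and 3 h of vehicle. Footprints are the mRNA fragments that ribosomes shield from nuclease, so their count per gene reflects how many ribosomes were reading that gene's mRNA. The comparison uses all 5 LPS and all 5 vehicle footprint libraries, 10 of the 27 libraries in the series. It was fitted over the 12197 genes that passed a filter on low counts, out of 20453 in the table.

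THP-1 is a human monocytic leukaemia line, and all cells had first been exposed to the phorbol ester PMA (10 ng/ml for 24 h), which makes them adhere and take on macrophage features. The vehicle group then received 0.1% ethanol and PBS, and the LPS group 100 ng/ml of LPS, with no dexamethasone in either. A further treatment, LPS with 1 µM dexamethasone, has 5 footprint libraries that enter here only through the estimate of the spread. Cells were lysed with cycloheximide, which holds ribosomes in place, and digested with RNase 1. Poly(A) mRNA was sequenced from 4 replicates of each treatment. The data describe 1 cell line differentiated by 1 agent. The labels do not say that replicates were separate cultures, so p-values measure the spread between these samples, which may be technical.

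LPS is the outer membrane lipid of Gram-negative bacteria and is recognised by Toll-like receptor 4 with its partners CD14 and LY96 (MD-2). One arm of the receptor, through MYD88, activates NF-kB and MAP kinases and switches on cytokine and chemokine genes. The other arm, through TICAM1 (TRIF), activates IRF3 and interferon-β, and the secreted interferon then induces antiviral genes. NF-kB also induces its own inhibitors, which limit the response.

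Vehicle libraries held 15.4 to 24.3 M footprint counts and LPS libraries 20.8 to 26.1 M. Levels are CPM, counts scaled to a common total, of a library size scaled by TMM, a method that takes the average gene as unchanged. The TMM factors had a median of 1.27 in vehicle and 0.965 in LPS libraries, and scaling by plain library totals would shift the median log2 change of all genes from -0.04 to -0.47. A rise or fall below is therefore a change relative to the average gene, and counts by library totals are given beside the gene lists described, since small shifts depend on this choice. The footprint library numbered 4 stood apart in every treatment, so values are also given with the replicate number as a block in the fit, or without the libraries numbered 4. It had the lowest TMM factor of each group, 0.933 in vehicle and 0.616 in LPS. Its CPM therefore stand higher beside the other libraries than its shares of plain counts do. All 13 macrophage markers were tested, led by the integrin ITGB2 at 8517 to 13455 CPM (median 8818) in the 5 vehicle libraries and 8633 to 16294 CPM (median 9291) in the 5 LPS libraries. Of 28 markers of other cell types 7 passed the filter, and CD3G, KLRD1, HBA1, HBA2 and PF4 had 0 counts in all 10 libraries. PECAM1, which monocytes also make, was the highest of the 7 at 700.2 to 1085 CPM (median 732) in the 5 vehicle libraries and 387 to 852 CPM (median 424) in the 5 LPS libraries. Marker lists together took 2.32 to 3.02% of vehicle and 1.68 to 2.32% of LPS counts (macrophage) and 0.0913 to 0.106% of vehicle and 0.0415 to 0.0576% of LPS counts (other types).

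LPS changed the footprints of 6416 of 12197 genes in edgeR's quasi-likelihood test at a Benjamini-Hochberg adjusted p under 0.05, which is 52.6% of those tested. Of these 3102 were higher (25.4% of tested genes) and 3314 lower (27.2%). At least 2-fold rises numbered 1096 (8.99%) and such falls 1342 (11%). Larger changes were mostly rises: 265 genes were at least 8-fold higher and 65 at least 8-fold lower, and at 32-fold the numbers were 68 and 3. The 5 LPS and 5 vehicle libraries did not overlap in 4699 genes, 38.5% of those tested. With the replicate number as a block 8186 genes changed (67.1%; 31.8% higher and 35.3% lower), among them 6410 of the 6416, and leaving out the libraries numbered 4 gave 8262 of 12233 (67.5%). By library totals 6420 genes changed, 52.6% of those tested, but the split moved to 1163 higher (9.54%) and 5257 lower (43.1%). In these bulk libraries more ribosomes per cell and more cells making an mRNA cannot be told apart.

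Cytokines and chemokines are the messengers of the response. TNF (ENSG00000232810, chromosome 6, 31575565 to 31578336, GRCh38.p14 here and below), which activates endothelium and other leukocytes, had 48.6, 48.2, 41.7, 90.6 and 26.4 CPM in vehicle replicates 1 to 5 and 1515, 1632, 1564, 9782 and 1444 CPM in LPS replicates 1 to 5. The groups did not overlap, and LPS replicate 4 was far above the other LPS libraries. TNF footprints rose by 5.96 ± 0.83 on the log2 scale (SE, adjusted p = 2.4e-05), or 5.22 without the libraries numbered 4. IL1B (ENSG00000125538, chromosome 2, 112829751 to 112836779), the fever-inducing cytokine that caspase-1 cleaves, had 1814, 1905, 1772, 5567 and 1258 CPM in vehicle replicates 1 to 5 and 34361, 35721, 36396, 62256 and 28805 CPM in LPS replicates 1 to 5. Replicate 4 was the highest in both groups, and every LPS library was above every vehicle library. Its rise was 4.00 ± 0.47 (adjusted p = 4.7e-06), and 4.32 without the libraries numbered 4.

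IL6 (ENSG00000136244, chromosome 7, 22727200 to 22731998), inducer of the acute phase, was close to absent before LPS, with 0.253, 0.161, 0.300, 0.278 and 0.380 CPM in vehicle replicates 1 to 5 and 32.6, 33.6, 32.9, 51.3 and 27.2 CPM in LPS replicates 1 to 5. Its vehicle level rests on 35 counts over the 5 libraries, replicate 4 was the highest with LPS, and the groups did not overlap. The rise was 6.96 ± 0.25 (adjusted p = 1.3e-11). CXCL8 (ENSG00000169429, chromosome 4, 73740569 to 73743716), which attracts neutrophils, had 1174, 1448, 1217, 4889.9 and 1006 CPM in vehicle replicates 1 to 5 and 15039, 17273, 18706, 53671 and 13920.5 CPM in LPS replicates 1 to 5. Replicate 4 was several times above the other libraries in both groups, and the rise of 3.61 ± 0.63 was 3.74 without the libraries numbered 4. CCL3 (ENSG00000277632, chromosome 17, 36088256 to 36090143), a macrophage inflammatory protein whose reads may be shared with its near copy CCL3L3, had 181, 172, 160.3, 642 and 135 CPM in vehicle replicates 1 to 5 and 6018, 5924, 6449, 20350.1 and 5737 CPM in LPS replicates 1 to 5. It rose by 5.11 ± 0.70 (adjusted p = 2e-05), with replicate 4 again the highest of each group and no overlap.

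Interferon-induced genes followed another pattern in the libraries numbered 4. CXCL10 (ENSG00000169245, chromosome 4, 76021118 to 76023497), which attracts T cells, had 1.09, 0.806, 1.09, 5.77 and 1.39 CPM in vehicle replicates 1 to 5 and 274, 265, 269, 129 and 288 CPM in LPS replicates 1 to 5. IFIT1 (ENSG00000185745, chromosome 10, 89392623 to 89406487), which binds viral RNA and belongs to a family of close paralogs, had 1.88, 2.66, 2.48, 40.3 and 2.60 CPM in vehicle replicates 1 to 5 and 237, 251, 271, 164 and 219.9 CPM in LPS replicates 1 to 5. For both genes replicate 4 was the highest vehicle library and the lowest LPS library, and the groups still did not overlap. CXCL10 rose by 7.03 ± 0.52 and IFIT1 by 4.57 ± 0.80 (adjusted p = 3.5e-08 and 0.00021). Without the libraries numbered 4 these rises were 7.94 and 6.66.

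The inhibitors that NF-kB induces did not share the high level of replicate 4 in both groups. NFKBIA (ENSG00000100906, chromosome 14, 35401513 to 35404749), which holds NF-kB in the cytoplasm, had 341, 326, 331, 330.2 and 243 CPM in vehicle replicates 1 to 5 and 2029.7, 2011, 1900.2, 2458 and 2185 CPM in LPS replicates 1 to 5. TNFAIP3 (ENSG00000118503, chromosome 6, 137866349 to 137883312), the ubiquitin-editing enzyme A20, had 139, 164, 155, 88.4 and 112 CPM in vehicle replicates 1 to 5 and 1157, 1223, 1246, 1182 and 1169 CPM in LPS replicates 1 to 5. Every LPS library was several times above every vehicle library, and in CPM replicate 4 was the highest LPS library for NFKBIA and the lowest vehicle library for TNFAIP3. The NFKBIA rank depends on the TMM factor. By library totals LPS replicate 4 was the lowest LPS library for NFKBIA (37405 of 24.7 M counts, against 42512 of 23.2 M in LPS replicate 3). NFKBIA rose by 2.75 ± 0.11 (adjusted p = 4.8e-11) and TNFAIP3 by 3.18 ± 0.15 (adjusted p = 2e-10). Of the enzymes in the panel, PTGS2 (ENSG00000073756, chromosome 1, 186671791 to 186680423), the inducible cyclooxygenase, had 14.1, 15.3, 15.6, 27.8 and 10.7 CPM in vehicle replicates 1 to 5 and 1089.6, 1237, 1275, 4129 and 1217 CPM in LPS replicates 1 to 5. ACOD1 (ENSG00000102794, chromosome 13, 76948511 to 76958638), which makes itaconate, had 0.145, 0.322, 0.188, 0.765 and 0.317 CPM in vehicle replicates 1 to 5 and 159, 179, 168, 201 and 231 CPM in LPS replicates 1 to 5. Replicate 4 was the highest LPS library for PTGS2 but not for ACOD1. The rises were 6.74 ± 0.60 and 9.21 ± 0.28 (adjusted p = 2.6e-07 and 2.9e-12), and ACOD1 had the largest rise of the genes that the naming rule admits.

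**Figure D1:**
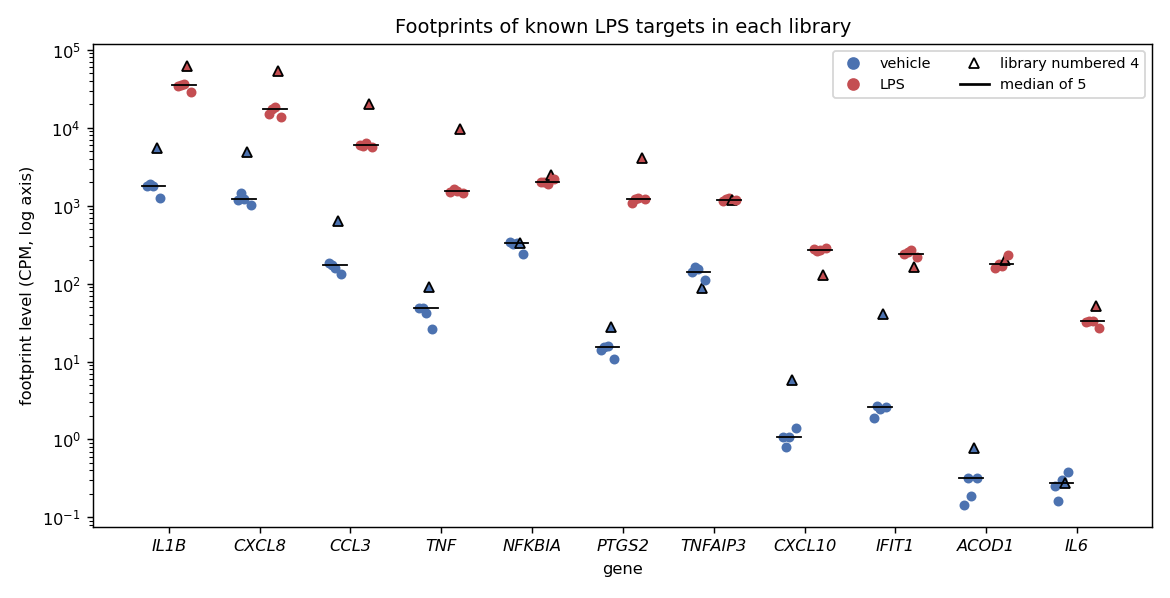
Footprint level of 11 known LPS targets in each of the 10 libraries, in CPM on a log axis, with vehicle in blue, LPS in red, the libraries numbered 4 as triangles and the median of 5 as a line. The groups do not overlap for any of the 11 genes, and the triangles lie above the other libraries of both groups for IL1B, CXCL8, CCL3, TNF and PTGS2.

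The promoters of these genes carry the letters of known LPS-activated factors to different degrees. The 250 bases before the RefSeq start (GRCh38.p14) were searched on both strands for the classical NF-kB consensus, for the core of the interferon-stimulated response element (ISRE, read here as GAAA, any 2 bases and GAAA) and for TGANTCA (AP-1), using only genes with a single start in the table. That left 22114 windows, 6989 of them of genes tested here. The NF-kB consensus was in 9.26% of all windows, 11.6% of tested genes, 21.6% of the 269 genes called and at least 4-fold higher and 14.4% of the 153 called and at least 4-fold lower. The ISRE core was in 3.21%, 2.53%, 8.92% and 0.654% of the same sets, and TGANTCA in 6.86%, 3.69%, 7.81% and 4.58%. By gene list, the NF-kB consensus was in 10 of 18 chemokine and 8 of 21 cytokine windows, and the ISRE core in 16 of 26 windows of interferon-induced antiviral genes. The stretches below show the matches in capitals, 5′ to 3′ on the gene's strand, for the genes with the values above and for the switched-on genes described next. They lie at chr7:22727117-22727146 (IL6, + strand), chr14:35404811-35404840 (NFKBIA, - strand), chr6:137867188-137867217 (TNFAIP3, + strand), chr4:76023600-76023629 (CXCL10, - strand), chr12:56338787-56338815 (IL23A, + strand), chr9:21077989-21078018 (IFNB1, - strand), chr10:89392504-89392532 (IFIT1, + strand), chr4:76007661-76007690 (CXCL9, - strand) and chr4:73740421-73740449 (CXCL8, + strand).
IL6: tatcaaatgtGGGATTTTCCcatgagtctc
NFKBIA: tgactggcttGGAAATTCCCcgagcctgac
TNFAIP3: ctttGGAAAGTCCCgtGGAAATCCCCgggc
CXCL10: tctgcaacatGGGACTTCCCcaggaacagc
IL23A: gaGGGGAATCCCacctgctgTGAGTCAcc
IFNB1: aagtgaaagtGGGAAATTCCtctgaataga
IFIT1: tagTTTCACTTTCcccTTTCGGTTTCcct
CXCL9: ccatttatgtGAAATGGAAAtaaaaacatg
CXCL8: aggaagtgtgaTGACTCAggtttgccctg
The RefSeq start used for TNFAIP3 is 137867259, which lies inside the gene span given above, so its stretch does too. The capitals are the NF-kB consensus in IL6, NFKBIA, TNFAIP3 (2 matches), CXCL10 and IFNB1, both NF-kB and TGANTCA in IL23A, the ISRE core in IFIT1 (2 matches on the opposite strand) and CXCL9, and TGANTCA in CXCL8. CXCL10 also holds a second NF-kB match and an ISRE core farther from the start. These exact letters were not in the windows of TNF, IL1B, PTGS2 and ACOD1. CCL3 above and TSLP, CCL4L2 and IFIT2 below had no window in this search. A match is a string of letters and was not tested as a binding site.

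Several secreted factors went from near 0 to a clear signal. IFNB1 (ENSG00000171855, chromosome 9, 21077104 to 21077942), the first interferon made after TLR4, had 0, 0, 0, 0.278 and 0.0634 CPM in vehicle replicates 1 to 5 and 8.27, 11.3, 8.49, 29.6 and 13.9 CPM in LPS replicates 1 to 5. CXCL9 (ENSG00000138755, chromosome 4, 76001275 to 76007509), another T cell attractant, had 0.0724, 0, 0, 0.209 and 0 CPM in vehicle replicates 1 to 5 and 16.4, 15.9, 13.8, 6.44 and 16.028 CPM in LPS replicates 1 to 5. These are the genes with at most 15 counts over the 5 vehicle libraries together (6 and 5) and at least 5 CPM in each LPS library. LPS replicate 4 was the highest library for IFNB1 and the lowest LPS library for CXCL9. The fitted rises of 8.03 ± 0.69 and 8.21 ± 0.54 depend on those few vehicle counts. IFNL1, a type III interferon, had 0 counts in every vehicle library and 26 to 78 counts in each LPS library, which is at least 78.8-fold higher when set against 3 counts over the vehicle group.

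Other large rises were also in mediators. The genes of this paragraph were taken only from called genes whose LPS and vehicle libraries do not overlap. TSLP (ENSG00000145777, chromosome 5, 111070062 to 111078026), a cytokine better known from epithelia, had 0.615, 0.846, 0.488, 0.835 and 0.285 CPM in vehicle replicates 1 to 5 and 84.9, 102, 109, 571 and 97.9 CPM in LPS replicates 1 to 5. IL23A (ENSG00000110944, chromosome 12, 56338884 to 56340410), the specific subunit of interleukin 23, had 1.41, 1.49, 1.61, 2.37 and 1.05 CPM in vehicle replicates 1 to 5 and 72.9, 78.7, 66.7, 652 and 66.8 CPM in LPS replicates 1 to 5. LPS replicate 4 was several times above the other LPS libraries for both. The rises were 8.34 ± 0.83 and 6.92 ± 0.95 (adjusted p = 9.2e-07 and 2.3e-05), or 7.48 and 5.68 without the libraries numbered 4. IDO1 (ENSG00000131203, chromosome 8, 39913891 to 39928790), which breaks down tryptophan, had 0.398, 0.685, 0.750, 0.557 and 0.253 CPM in vehicle replicates 1 to 5 and 156, 143, 138, 68.1 and 117 CPM in LPS replicates 1 to 5, and here replicate 4 was the lowest LPS library. CCL4L2 (ENSG00000276070, chromosome 17, 36211063 to 36212873), a near copy of the chemokine CCL4 with which it may share reads, had 29.2, 31.9, 28.2, 37.4 and 24.4 CPM in vehicle replicates 1 to 5 and 6139, 6412, 6270.3, 8885 and 7837 CPM in LPS replicates 1 to 5. IFIT2 (ENSG00000119922, chromosome 10, 89302046 to 89309271), an interferon-induced gene, had 1.30, 1.93, 1.5, 10.2 and 2.12 CPM in vehicle replicates 1 to 5 and 431, 439.9, 483, 278 and 520.2 CPM in LPS replicates 1 to 5. These last 3 rose by 7.89 ± 0.29, 7.88 ± 0.27 and 7.06 ± 0.61 (adjusted p = 1.6e-11, 7.5e-12 and 1.8e-07).

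The 10 called genes that gained the most CPM between the group medians were IL1B, CXCL8, CCL4L2, CCL3, CCL3L3, ICAM1, CCL4, CD44, MFSD2A and TRAF1. These gains are footprints per gene, not per length, so they do not rank protein output. ICAM1 (ENSG00000090339, chromosome 19, 10271120 to 10286615), the endothelial and leukocyte adhesion molecule, had 885, 911, 859, 1903 and 713 CPM in vehicle replicates 1 to 5 and 4935, 5331, 4763, 16780.3 and 5099.8 CPM in LPS replicates 1 to 5. CD44 (ENSG00000026508, chromosome 11, 35139171 to 35232402), the hyaluronan receptor, had 616, 634, 575, 1118 and 536 CPM in vehicle replicates 1 to 5 and 4738, 4894, 4746, 11330.1 and 4204 CPM in LPS replicates 1 to 5. For both, replicate 4 was well above the other libraries of its group, and the rises were 2.81 ± 0.52 and 3.10 ± 0.43 (adjusted p = 0.00033 and 2.5e-05). TRAF1 (ENSG00000056558, chromosome 9, 120902393 to 120929171), an adaptor of TNF family receptors, had 116, 117, 110.4, 121 and 93.7 CPM in vehicle replicates 1 to 5 and 3802, 3489, 3498, 3845 and 3961 CPM in LPS replicates 1 to 5. It rose by 5.06 ± 0.11 (adjusted p = 1.3e-13), with replicate 4 close to the other libraries in both groups in CPM. By library totals LPS replicate 4 was the lowest LPS library for TRAF1 (58512 of 24.7 M counts, against 70202 of 20.8 M in LPS replicate 2). MFSD2A, a lipid transporter, had 370.4 to 1344 CPM (median 418) in the 5 vehicle libraries and 4443 to 17565 CPM (median 4536) in the 5 LPS libraries and rose by 3.59 ± 0.61.

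The share of all footprint counts that each gene list took shows this shift without TMM. Cytokines went from 0.405, 0.408, 0.387, 1.22 and 0.327% in vehicle replicates 1 to 5 to 3.79, 3.91, 3.94, 5.31 and 3.24% in LPS replicates 1 to 5. Chemokines went from 0.228, 0.266, 0.233, 0.626 and 0.205% to 4.30, 4.55, 4.78, 8.26 and 4.45% in the same order. In each list the lowest LPS library was above the highest vehicle library, and replicate 4 was the highest of its group. Most of the cytokine share with LPS was the single gene IL1B. It held 810180 of 24.3 M counts in LPS replicate 1 and 50132 of 22.1 M in vehicle replicate 1. The NF-kB list took 0.157 to 0.239% of vehicle and 1.00 to 1.51% of LPS counts, and interferon-induced antiviral genes 0.189 to 0.498% of vehicle and 0.589 to 0.991% of LPS counts. Other lists took a smaller share. Nuclear-encoded respiratory chain genes took 0.706 to 1.06% of vehicle and 0.489 to 0.806% of LPS counts, mitochondrial ribosomal proteins 0.305 to 0.470% of vehicle and 0.201 to 0.364% of LPS counts, and actin and migration genes 2.59 to 3.54% of vehicle and 1.90 to 3.09% of LPS counts. For these 3 lists the lowest values belong to the libraries numbered 4, and without them every LPS library was below every vehicle library.

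**Figure D2:**
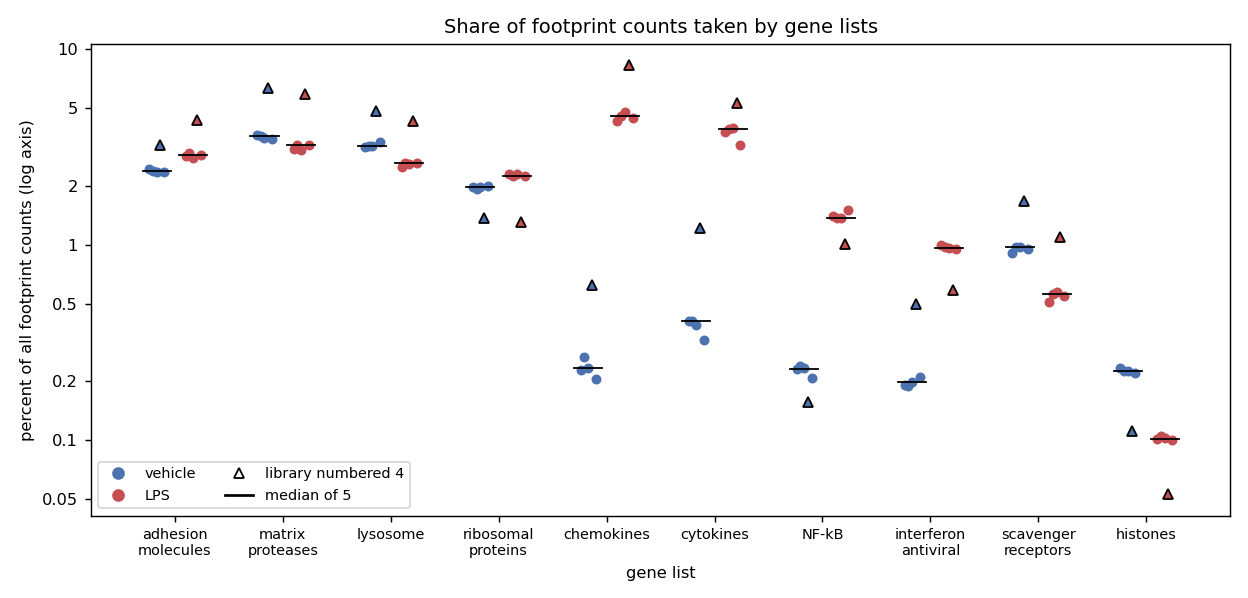
Percent of all footprint counts in each of the 10 libraries that fell on 10 gene lists, on a log axis, with vehicle in blue, LPS in red, the libraries numbered 4 as triangles and the median of 5 as a line. Cytokine, chemokine, NF-kB and interferon antiviral genes take a larger share in all 5 LPS libraries, and histones a smaller one.

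Most genes of the inflammatory lists rose. The shares over all tested genes, to set beside every list, were 25.4% higher and 27.2% lower. With the block they were 31.8% and 35.3%, and by library totals 9.54% and 43.1%. Of 39 tested cytokine genes 30 rose and 0 fell (median log2 change 3.73, also with IFNL1 at its bound), against 25.4% higher and 27.2% lower of all genes, with 33 higher and 2 lower with the block, and 28 and 0 by library totals. Of 25 chemokines 22 rose (median 3.61), with 24 higher and 0 lower with the block, and 22 and 0 by library totals. NF-kB subunits, inhibitors and feedback genes rose in 27 of 29 (median 2.31), with 27 higher and 1 lower with the block, and 21 and 2 by library totals. TNIP3, an A20-binding protein, rose by 6.01 ± 0.21, TNFAIP6, a hyaluronan-binding secreted protein, by 5.44 ± 0.36, and TNFAIP2 by 5.39 ± 0.15. OTULIN, a deubiquitinase that removes linear ubiquitin chains, was the only member that passed as lower (it fell by 0.56 ± 0.10, adjusted p = 0.00025).

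Antiviral genes rose in 41 of 48 and fell in 2 (median 1.92), with 45 higher and 3 lower with the block, and 40 and 2 by library totals. OASL, an RNA-binding antiviral protein, rose by 5.88 ± 0.66 and HERC5, the ligase for the ubiquitin-like ISG15, by 5.51 ± 0.51 (7.17 and 6.27 without the libraries numbered 4). IFITM2, which blocks viral entry, fell by 0.64 ± 0.15 (adjusted p = 0.0028). Interferon signalling factors and guanylate-binding proteins rose in 20 and fell in 3 of 25, with 20 higher and 3 lower with the block, and 14 and 3 by library totals. SOCS3, the feedback inhibitor of JAK signalling, rose by 5.67 ± 0.19, STAT4 by 5.55 ± 0.46 and GBP5 by 4.83 ± 0.36. The 3 falls were all in interferon regulatory factors: IRF5 fell by 1.5 ± 0.09, IRF3 fell by 0.52 ± 0.16 and IRF2 fell by 0.37 ± 0.12 (adjusted p = 3e-09, 0.013 and 0.019). Another such factor, IRF7, rose by 0.70 ± 0.27 (adjusted p = 0.042).

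The sensing machinery itself was split. Of 29 genes of LPS sensing and Toll-like receptor signalling 13 rose and 6 fell (median 0.41), with 15 higher and 10 lower with the block, and 6 and 10 by library totals. In each of these fits the falls were a smaller share than over all genes (27.2%, 35.3% with the block and 43.1% by library totals). CD14 (ENSG00000170458, chromosome 5, 140631732 to 140633701), which hands LPS to the receptor, had 57.7, 52.9, 63.3, 31.8 and 58.2 CPM in vehicle replicates 1 to 5 and 15.1, 12.5, 12.7, 10.6 and 15.989 CPM in LPS replicates 1 to 5. All LPS libraries were below all vehicle libraries, and CD14 fell by 1.98 ± 0.17 (adjusted p = 1.4e-07). TAB1, a partner of the kinase TAK1, fell by 1.63 ± 0.12, and SIGIRR, an inhibitory receptor of the family, fell by 1.34 ± 0.17. In the other direction IRAK2, a kinase that sustains signalling from MYD88, had 49.5 to 78.1 CPM (median 75.4) in the 5 vehicle libraries and 751 to 852 CPM (median 761) in the 5 LPS libraries. It rose by 3.52 ± 0.13, and the sensors of RNA in endosomes, TLR8 and TLR7, by 2.11 ± 0.49 and 2.05 ± 0.26.

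Receptors for cytokines and chemokines changed in both directions. Of 37 tested 19 rose and 7 fell (median 0.62, or 0.14 by library totals), with 22 higher and 11 lower with the block, and 16 and 14 by library totals. Here too the falls were below the share of all genes in each fit. CCR7, which guides cells to lymph nodes, had 0.317 to 0.926 CPM (median 0.543) in the 5 vehicle libraries and 34.7 to 140.4 CPM (median 36.0) in the 5 LPS libraries and rose by 6.65 ± 0.66. IL18R1, a subunit of the receptor for interleukin 18, rose by 4.13 ± 0.21, and FAS, the death receptor, by 4.07 ± 0.64 from 6 counts over the vehicle group. The monocyte chemokine receptors CX3CR1 and CCR2 fell. CX3CR1 (ENSG00000168329, chromosome 3, 39263494 to 39292966), the fractalkine receptor, had 32.9, 31.1, 31.7, 18.4 and 35.6 CPM in vehicle replicates 1 to 5 and 3.18, 3.08, 2.37, 3.68 and 2.78 CPM in LPS replicates 1 to 5, with vehicle replicate 4 the lowest of its group. It fell by 3.32 ± 0.26 (adjusted p = 7.8e-08), CCR2, the receptor for CCL2, fell by 3.70 ± 0.50, and TGFBR2, a TGF-β receptor, fell by 2.18 ± 0.15.

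Genes that present antigen and costimulate T cells showed a few strong rises. CD80, a costimulatory ligand, had 0.638 to 0.967 CPM (median 0.868) in the 5 vehicle libraries and 39.1 to 53.0 CPM (median 51.5) in the 5 LPS libraries and rose by 5.86 ± 0.13. CD274 (PD-L1), an inhibitory ligand, rose by 4.81 ± 0.42 and ICOSLG by 3.53 ± 0.71 from 6 vehicle counts, while NLRC5, the activator of MHC class I genes, fell by 1.09 ± 0.14. Over the list 8 rose and 1 fell of 30, close to the share of all genes for rises, with 16 higher and 2 lower with the block, and 8 and 8 by library totals and medians of 0.42 and -0.04 by TMM and by library totals. HLA genes in this list have close paralogs.

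Among 35 MAP kinase phosphatases and immediate early genes, rises numbered 19 and falls 6, with 23 higher and 7 lower with the block, and 17 and 6 by library totals. DUSP16, a phosphatase of JNK and p38, rose by 4.17 ± 0.23, the nuclear receptor NR4A3 by 4.08 ± 0.22 and IER3 by 3.53 ± 0.54. DUSP7 fell by 1.74 ± 0.20 and FOS fell by 1.73 ± 0.22. Survival and apoptosis genes rose in 14 of 19, with 15 higher and 2 lower with the block, and 12 and 3 by library totals. PMAIP1 (NOXA), a promoter of apoptosis, rose by 4.83 ± 0.25, and BIRC3, an inhibitor of it, by 4.17 ± 0.18. Inflammasome genes were mixed, with 10 rising and 6 falling of 23 (median 0.18, or -0.23 by library totals), with 12 higher and 8 lower with the block, and 6 and 8 by library totals. Falls in this list were close to or below the share of all genes in each fit. The DNA sensor AIM2 rose by 4.40 ± 0.61 and CASP5 by 3.95 ± 0.38, while the adaptor PYCARD (ASC) fell by 2.03 ± 0.17 and NLRC4 fell by 3.11 ± 0.21.

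Enzymes of immune metabolism rose in 12 and fell in 3 of 22, with 15 higher and 4 lower with the block, and 11 and 4 by library totals. Beside ACOD1 and IDO1 the largest rise was that of CH25H, which makes 25-hydroxycholesterol, at 6.44 ± 0.49 from 21 vehicle counts. NOS2, the inducible nitric oxide synthase of mouse macrophages, fell by 2.95 ± 0.47 from a median of 1.11 to 0.127 CPM, and PDK4, which holds back pyruvate oxidation, fell by 2.80 ± 0.25. TDO2, the other enzyme of the first tryptophan step, had 1036 to 1513 CPM (median 1204) in the 5 vehicle libraries and 431 to 984 CPM (median 479.6) in the 5 LPS libraries. It fell by 1.11 ± 0.23 (adjusted p = 0.00081), opposite to IDO1. In prostaglandin and leukotriene synthesis 7 rose and 2 fell of 18 (medians 0.32 and -0.17 by library totals), with 8 higher and 5 lower with the block, and 4 and 6 by library totals. Falls in this list were below the share of all genes in each fit. The prostaglandin E2 receptor PTGER2 rose by 3.60 ± 0.15, whereas ALOX5, the first enzyme of leukotriene synthesis, fell by 0.99 ± 0.24.

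Among genes of G protein signalling, RGS14 (ENSG00000169220, chromosome 5, 177357924 to 177372596), a regulator of Gi signalling, had 21.7, 18.3, 20.0, 15.5 and 21.7 CPM in vehicle replicates 1 to 5 and 0.594, 0.497, 0.760, 0.723 and 0.823 CPM in LPS replicates 1 to 5. Its change of -4.83 ± 0.19 was the largest fall that the naming rule admits (adjusted p = 2.7e-11). That rule takes only called genes whose groups do not overlap. The adenosine receptor ADORA3 fell by 4.61 ± 0.44 and the receptor P2RY8 fell by 2.51 ± 0.32. HCAR2 and HCAR3, receptors encoded by near-identical neighbouring genes, rose by 5.37 ± 0.39 and 5.17 ± 0.45 and may share reads. PDE4B, which degrades cyclic AMP, rose by 4.66 ± 0.62. Over this list 9 rose and 11 fell of 31 (medians 0.05 and -0.41 by library totals), near the shares of all genes, with 13 higher and 12 lower with the block, and 9 and 14 by library totals.

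The remaining largest falls of the naming rule were in genes of varied roles. The rule required that they were called and that their groups did not overlap. MTUS1 (ENSG00000129422, chromosome 8, 17643802 to 17801521), a microtubule-associated protein, had 29.5, 30.3, 30.4, 29.4 and 28.7 CPM in vehicle replicates 1 to 5 and 0.594, 1.49, 0.849, 2.23 and 1.29 CPM in LPS replicates 1 to 5, and fell by 4.56 ± 0.24 with no overlap. TNFAIP8L3, a lipid transfer protein, fell by 4.15 ± 0.24, the inositol phosphate kinase ITPKB fell by 3.77 ± 0.21, RAB11FIP4, of recycling endosomes, fell by 3.42 ± 0.21, the Ras effector RIN1 fell by 3.28 ± 0.21 and GPRIN3 fell by 3.27 ± 0.49. MARCHF1 (ENSG00000145416, chromosome 4, 163524298 to 164384019), the ligase that removes MHC class II and CD86 from the surface, had 13.3, 12.1, 13.8, 10.9 and 20.7 CPM in vehicle replicates 1 to 5 and 1.10, 1.79, 2.01, 1.18 and 1.10 CPM in LPS replicates 1 to 5. Its libraries did not overlap and it fell by 3.30 ± 0.28 (adjusted p = 1.5e-07).

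Transcription factors of the myeloid lineage rose and fell in equal number, 15 and 15 of 34 (medians -0.12 and -0.53 by library totals), with 15 higher and 15 lower with the block, and 10 and 17 by library totals. MAF (ENSG00000178573, chromosome 16, 79202622 to 79600737), a factor of resident macrophages, had 34.4, 29.8, 33.2, 31.2 and 37.3 CPM in vehicle replicates 1 to 5 and 2.97, 2.68, 2.10, 5.91 and 3.96 CPM in LPS replicates 1 to 5, and fell by 3.25 ± 0.27. The granulocyte and monocyte factors CEBPE and CEBPA fell (log2 changes of -3.74 ± 0.29 and -2.69 ± 0.20). HIF1A, which drives glycolytic genes, had 95.5 to 129 CPM (median 108) in the 5 vehicle libraries and 438 to 567 CPM (median 461) in the 5 LPS libraries and rose by 2.13 ± 0.11. IKZF1 rose by 2.15 ± 0.09 and MYB by 2.18 ± 0.30.

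Levels of resident macrophage functions showed fewer calls, and their number grew when the replicate number was a block. TREM2 (ENSG00000095970, chromosome 6, 41158508 to 41163116), a lipid receptor, had 869.8, 706, 773, 1138 and 754 CPM in vehicle replicates 1 to 5 and 319, 319.5, 277, 651 and 300.1 CPM in LPS replicates 1 to 5. Every LPS library was below every vehicle library, with replicate 4 the highest of each group, and TREM2 fell by 1.18 ± 0.32 (adjusted p = 0.0054). PPARG, the lipid-sensing nuclear receptor, fell by 2.39 ± 0.27. The efferocytosis receptor MERTK fell by 1.96 ± 0.70 (adjusted p = 0.029, 9e-11 with the block), while OLR1, a receptor for oxidised LDL, rose by 2.85 ± 0.36. Of 27 scavenger and lipid-handling genes 2 rose and 5 fell (25.4% and 27.2% of all genes did), with 6 higher and 13 lower with the block, and 2 and 13 by library totals. Falls in this list were thus a smaller share than over all genes without the block and a larger one with it (35.3% of all genes). Fc, lectin and complement genes gave 3 higher and 4 lower of 30, with 8 higher and 7 lower with the block, and 1 and 9 by library totals. Rises and falls were both below the shares of all genes in each fit. CLEC4E (Mincle), a receptor for mycobacterial glycolipid, rose by 3.46 ± 0.26 and SIGLEC9, an inhibitory lectin, fell by 1.63 ± 0.39. For macrophage markers 0 rose and 4 fell of 13 (CD14, AIF1, CD33 and SPI1), with 2 higher and 5 lower with the block, and 0 and 7 by library totals. These 4 falls were near the 27.2% of all genes.

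Of secreted proteases and coagulation genes 11 rose and 2 fell of 32, with 21 higher and 7 lower with the block, and 10 and 7 by library totals. PLAT, tissue plasminogen activator, had 0.626 to 1.46 CPM (median 1.41) in the 5 vehicle libraries and 73.3 to 124 CPM (median 90.1) in the 5 LPS libraries and rose by 6.24 ± 0.34. SERPINB2, which inhibits plasminogen activators, rose by 4.18 ± 0.72 and TFPI2, a protease inhibitor, by 2.63 ± 0.69 (adjusted p = 0.0047). Thrombomodulin (THBD), the anticoagulant receptor for thrombin, had 666 to 2335 CPM (median 811) in the 5 vehicle libraries and 156 to 731 CPM (median 187) in the 5 LPS libraries. Its groups overlap, and its change of -1.88 ± 0.71 (adjusted p = 0.035) had an adjusted p of 5.1e-08 with the block. Adhesion genes gave 12 higher and 6 lower of 32 (medians 0.43 and -0.03 by library totals), with 16 higher and 8 lower with the block, and 11 and 11 by library totals. The integrin ITGB8, which activates TGF-β, rose by 4.16 ± 0.15 and VCAM1 by 3.60 ± 0.24, while SELPLG, the ligand of P-selectin, fell by 1.52 ± 0.22 and ITGA4 fell by 0.97 ± 0.16. In the actin, phagocytosis and migration list 10 rose and 12 fell of 42, near the shares of all genes (25.4% and 27.2%), with 15 higher and 15 lower with the block, and 3 and 19 by library totals. MARCKS rose by 2.48 ± 0.17 and ARHGAP25 fell by 2.44 ± 0.18.

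The largest losses of footprints in CPM included structural and lipid genes. LMNA (ENSG00000160789, chromosome 1, 156082573 to 156140081), which encodes the nuclear lamins A and C, lost the most and had 3451, 2830.4, 2982, 3391 and 2454 CPM in vehicle replicates 1 to 5 and 1848, 1738, 1629, 2208 and 1785 CPM in LPS replicates 1 to 5. All LPS libraries were below all vehicle libraries, and LMNA fell by 0.71 ± 0.13 (adjusted p = 0.00024). PLIN2, which coats lipid droplets, had 1355 to 2609 CPM (median 1716) in the 5 vehicle libraries and 771 to 2044 CPM (median 829) in the 5 LPS libraries, and fell by 0.77 ± 0.30 with overlap (adjusted p = 0.041, 4.1e-07 with the block). PLEC, a cytoskeletal linker, fell by 0.79 ± 0.13, the receptor NOTCH1 fell by 0.92 ± 0.24, TNS3, a focal adhesion protein, fell by 0.83 ± 0.08, and ZFP36L1, which promotes decay of AU-rich mRNAs, fell by 2.17 ± 0.13.

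**Figure D3:**
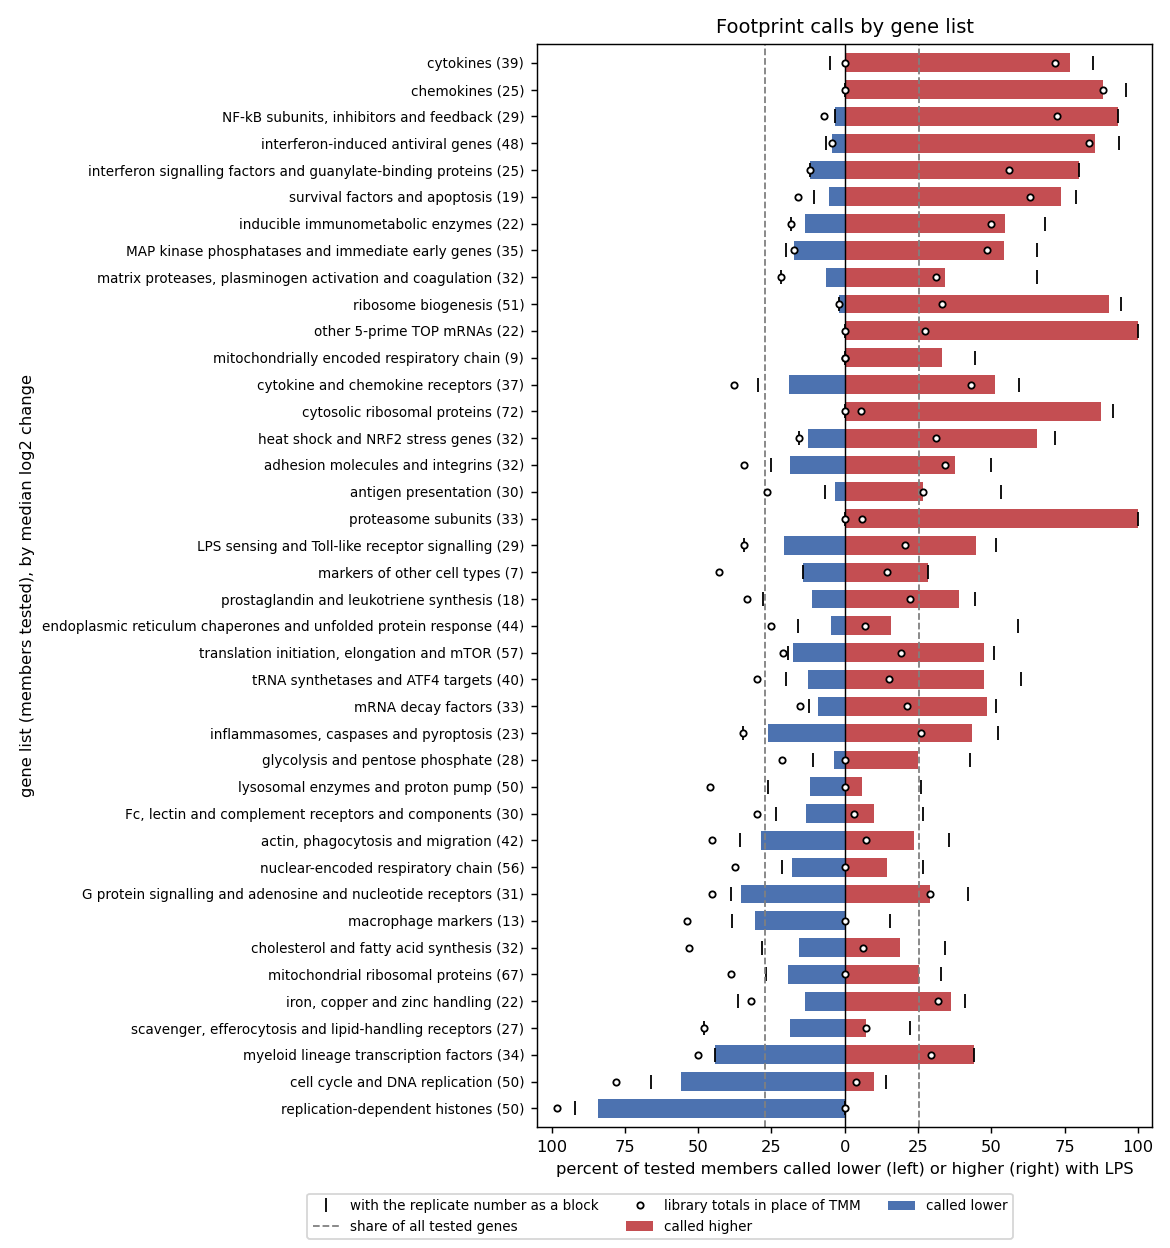
Percent of the tested members of each gene list called lower (blue, left) or higher (red, right) with LPS, sorted by median log2 change, with the number tested in brackets. Black ticks give the same share with the replicate number as a block, open circles the share by library totals, and dashed lines the share of all tested genes (25.4% higher, 27.2% lower): for ribosomal protein and proteasome genes the circles lie far from the bars.

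Some of the calls named here were weak and ended when 1 library was left out. For MERTK, THBD and SGSH this held for LPS replicates 1, 2, 3 and 5 and vehicle replicate 4, each left out singly (log2 changes of -2.97 to -1.39, adjusted p up to 0.096 for MERTK, -2.56 to -1.39, adjusted p up to 0.11 for THBD and -1.47 to -0.80, adjusted p up to 0.09 for SGSH). CD33 lost its call without the same libraries (-1.10 to -0.72, adjusted p up to 0.059), and PLIN2 without these or vehicle replicates 1 or 2 (-1.16 to -0.60, adjusted p up to 0.11). IRF2 lost it without LPS replicate 5 or vehicle replicates 1, 2 or 3 (-0.45 to -0.29, adjusted p up to 0.07). TRIM22, whose difference from mRNA is given further on, lost its rise without LPS replicates 1 or 4 or vehicle replicates 1, 2, 3 or 5 (1.27 to 2.57, adjusted p up to 0.08), and IRF7 without these or LPS replicate 2 (0.56 to 1.03, adjusted p up to 0.1). All of these genes kept their direction in these fits.

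For lists of protein synthesis and breakdown most calls depend on the scaling. Cytosolic ribosomal protein genes rose in 63 of 72 tested and fell in 0 (median 0.58), with 66 higher and 0 lower with the block, and 4 and 0 by library totals (median 0.16, where the median of all genes is -0.47). Many members have processed pseudogenes, and some had few counts, such as RPL7 with 40 over the vehicle group. Other mRNAs of the 5-prime TOP class rose in 22 of 22 (median 0.66), with 22 higher and 0 lower with the block, and 6 and 0 by library totals (median 0.24). EEF1A1 (ENSG00000156508, chromosome 6, 73515750 to 73521032), the elongation factor that brings tRNA to the ribosome, had 131, 118, 111, 76.5 and 120.2 CPM in vehicle replicates 1 to 5 and 312, 251, 273, 307 and 361 CPM in LPS replicates 1 to 5. The groups did not overlap, and it rose by 1.44 ± 0.14 (adjusted p = 5.4e-07), with 0.87 ± 0.07 in mRNA. The difference between the assays did not pass (adjusted p = 0.07, or 0.0051 with the block). EEF1B2, its exchange factor, rose by 1.10 ± 0.12. Ribosome biogenesis genes rose in 46 of 51 (median 0.74), with 48 higher and 1 lower with the block, and 17 and 1 by library totals. In that list the RNA helicase DDX21 rose by 1.65 ± 0.08 and UBTF, which directs transcription of ribosomal RNA genes, fell by 1.42 ± 0.06.

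TOP mRNAs are named for a first base of C followed by a run of pyrimidines, through which mTOR controls their translation. Their first 20 bases are shown for some of the genes counted above, read from the RefSeq start on the gene's strand (GRCh38.p14), with the starting run in capitals. They lie at chr6:73521013-73521032 (EEF1A1, - strand), chr19:3985444-3985463 (EEF2, - strand), chr9:19380217-19380236 (RPS6, - strand), chr6:132814569-132814588 (RPS12, + strand), chr10:78033863-78033882 (RPS24, + strand) and chr9:133348218-133348237 (RPL7A, + strand).
EEF1A1: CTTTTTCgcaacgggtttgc
EEF2: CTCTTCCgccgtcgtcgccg
RPS6: CTCTTTTCCgtggcgcctcg
RPS12: CTCTTTCCCTgccgccgccg
RPS24: CTCTTTTCCTCCTTggctgt
RPL7A: CTTTCTCTCTCCTCCCgccg
Their footprint changes in the same order were 1.44, 0.94, 0.73, 0.71, 0.35 and 0.44 on the log2 scale, and all 6 passed the test. A start of C and at least 4 pyrimidines was found in 38 of 47 ribosomal protein genes and 10 of 13 other TOP genes with a single RefSeq start, against 3.98% of all windows. Of 408 tested genes with this start, both lists included, 32.4% were called higher. Outside both lists 360 genes had it, of which 90 (25%) were called higher (median log2 change -0.04), against 25.4% of 6569 genes without it (median -0.04).

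All 33 tested proteasome subunits rose, by a median of 0.41, but by library totals 2 were called higher, 0 lower, and the median was -0.0007. PSMA6 had 126 to 169 CPM (median 147) in the 5 vehicle libraries and 256 to 478 CPM (median 294) in the 5 LPS libraries and rose by 1.17 ± 0.16. Among 57 translation and mTOR genes, rises numbered 27 and falls 10 (median 0.29, or -0.13 by library totals), with 29 higher and 11 lower with the block, and 11 and 12 by library totals. DDIT4, an inhibitor of mTOR, rose by 2.33 ± 0.15, while SESN1, another, fell by 2.38 ± 0.14 and EEF2K, the kinase that slows elongation, fell by 1.73 ± 0.14. Genes of mRNA decay rose in 16 and fell in 3 of 33 (median 0.21, or -0.21 by library totals), with 17 higher and 4 lower with the block, and 7 and 5 by library totals. The RNases ZC3H12C and ZC3H12A (Regnase-1), which cleave inflammatory mRNAs, rose by 3.03 ± 0.12 and 2.72 ± 0.10.

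Stress and organelle genes showed smaller differences. Heat shock and NRF2 genes rose in 21 and fell in 4 of 32, with 23 higher and 5 lower with the block, and 10 and 5 by library totals. NFE2L2 (NRF2) rose by 1.53 ± 0.12 and OSGIN1 by 1.54 ± 0.12, and HSPB1, a small heat shock protein, fell by 1.08 ± 0.18. In tRNA synthetases and ATF4 targets 19 rose and 5 fell of 40 (medians 0.26 and -0.16 by library totals), with 24 higher and 8 lower with the block, and 6 and 12 by library totals. CHAC1, which degrades glutathione, rose by 2.31 ± 0.15, while the enzymes of serine synthesis PSAT1, PHGDH and PSPH fell (log2 changes of -1.02 ± 0.11, -0.93 ± 0.16 and -0.70 ± 0.15). Endoplasmic reticulum and unfolded protein response genes gave 7 higher and 2 lower of 44 (medians 0.31 and -0.14 by library totals), with 26 higher and 7 lower with the block, and 3 and 11 by library totals. The transcription factor XBP1 rose by 1.30 ± 0.11, and ERN1 (IRE1), which splices its mRNA, fell by 1.72 ± 0.53 (adjusted p = 0.013, 3.1e-11 with the block).

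Lysosomal genes gave 3 higher and 6 lower of 50 (medians 0.10 and -0.33 by library totals), with 13 higher and 13 lower with the block, and 0 and 23 by library totals. Glycolysis and pentose phosphate genes gave 7 and 1 of 28 (medians 0.13 and -0.33), with 12 higher and 3 lower with the block, and 0 and 6 by library totals. Nuclear-encoded respiratory chain genes gave 8 and 10 of 56 (medians 0.08 and -0.35), with 15 higher and 12 lower with the block, and 0 and 21 by library totals. These shares were at or below those of all genes by TMM, and no change in these lists reached 2-fold except the fall of SGSH, a lysosomal sulfatase (-1.09). Cholesterol and fatty acid synthesis gave 6 higher and 5 lower of 32, below the shares of all genes, with 11 higher and 9 lower with the block, and 2 and 17 by library totals. Within it STARD4, a cholesterol carrier, rose by 2.32 ± 0.25.

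Genes of proliferation fell. Replication-dependent histones fell in 42 of 50 and rose in 0 (median -0.66), with 0 higher and 46 lower with the block, and 0 and 49 by library totals. H1-3 (ENSG00000124575, chromosome 6, 26234212 to 26234987), a linker histone, had 58.5, 65.9, 58.9, 32.2 and 54.9 CPM in vehicle replicates 1 to 5 and 16.032, 18.7, 16.5, 11.4 and 14.8 CPM in LPS replicates 1 to 5, and fell by 1.80 ± 0.18 without overlap (adjusted p = 9.2e-07). Histone genes are near-identical to each other in parts, so single members are uncertain. Cell cycle and DNA replication genes fell in 28 and rose in 5 of 50 (median -0.59), with 7 higher and 33 lower with the block, and 2 and 39 by library totals. The mitotic genes KIF20A, AURKA and CDC20 fell (log2 changes of -2.09 ± 0.38, -2.08 ± 0.14 and -1.81 ± 0.15), and the G1 genes CCNE2 and CDK6 rose by 2.34 ± 0.14 and 0.87 ± 0.08.

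The footprint response was next set beside that of the mRNA in the same treatments (4 LPS and 4 vehicle libraries), where 8291 of 13327 tested genes changed (62.2%). Of 11944 genes tested in both assays, 5269 passed in both with the same direction and 24 with opposite directions. Another 1022 passed only in footprints and 2261 only in mRNA, which does not show that the assays differ for those genes. The difference itself, tested in 1 fit over both assays, passed for 208 genes (1.74%), 126 with the footprint change above the mRNA change (1.05%) and 82 below (0.687%). With the block the counts were 490 above and 407 below, and without the libraries numbered 4 they were 351 and 230. Of the panel only TNFAIP3 passed without the block, its footprints rising more than its mRNA by 0.69 ± 0.18 (adjusted p = 0.045). With the block the differences of TNF (adjusted p = 0.016) and PTGS2 (adjusted p = 0.026) passed as well. In the fit without the block they were 1.49 ± 0.78 and 1.09 ± 0.60 (adjusted p = 0.498 and 0.537). Without the libraries numbered 4, TNF differed by 1.01 (adjusted p = 0.0046) and PTGS2 by 1.04 without passing (adjusted p = 0.06).

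By the naming rule the largest differences upward were in 5 genes. TTN (ENSG00000155657, chromosome 2, 178525989 to 178807423), which encodes the giant muscle protein titin, had 8.03, 15.8, 7.28, 6.89 and 5.70 CPM in vehicle replicates 1 to 5 and 178, 99.0, 23.0, 82.9 and 46.8 CPM in LPS replicates 1 to 5. The LPS libraries were all above the vehicle libraries but varied widely among themselves. TTN footprints rose by 3.30 ± 0.50 while its mRNA changed by -0.03 ± 0.08, a difference of 3.37 ± 0.55 (adjusted p = 0.00089). SPARCL1, an extracellular matrix protein, had a footprint change of 0.92 ± 0.24 against -1.74 ± 0.14 in mRNA. SGPP2, a sphingosine phosphate phosphatase, had 4.44 ± 0.25 against 1.83 ± 0.15, and FSTL3, an activin inhibitor, 5.14 ± 0.44 against 2.83 ± 0.25. NCOA7 (ENSG00000111912, chromosome 6, 125781115 to 125932034), a gene with a short interferon-induced form, had 38.9, 45.4, 44.5, 57.7 and 43.6 CPM in vehicle replicates 1 to 5 and 244, 242, 237, 159 and 190.3 CPM in LPS replicates 1 to 5. Its footprints rose by 2.22 ± 0.14 and its mRNA changed by 0.26 ± 0.18 without passing, a difference of 2.00 ± 0.23 (adjusted p = 1.9e-05).

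The largest differences downward were led by interferon-induced genes, for which the libraries numbered 4 lie unlike the rest. TRIM22, an antiviral ligase, had 2.90 to 23.2 CPM (median 3.26) in the 5 vehicle libraries and 15.5 to 26.5 CPM (median 16.3) in the 5 LPS libraries. Its footprints rose by 1.46 ± 0.55 and its mRNA by 4.37 ± 0.15, a difference of -2.87 ± 0.64 (adjusted p = 0.016), or -2.01 without the libraries numbered 4. SAMD9L differed by -1.88 ± 0.43, HELZ2 by -1.66 ± 0.38 and IRF7 by -1.33 ± 0.35 (adjusted p = 0.021, 0.019 and 0.0499), or by -1.20, -1.38 and -1.18 without those libraries. The footprint change of HELZ2 itself, 0.79 ± 0.32, did not pass (adjusted p = 0.052). MARCHF1, whose mRNA was too low for the naming rule, also differed by -1.66 ± 0.40 (adjusted p = 0.026). CDCA4 changed in opposite directions: its footprints fell by 0.55 ± 0.11 while its mRNA rose by 0.92 ± 0.12. Among lost genes ITGAL (ENSG00000005844, chromosome 16, 30472742 to 30523185), the integrin chain of LFA-1, had 952, 885, 923, 755 and 861 CPM in vehicle replicates 1 to 5 and 474, 478, 444, 549 and 495 CPM in LPS replicates 1 to 5. Footprints of ITGAL fell by 0.84 ± 0.08, less than its mRNA change of -1.77 ± 0.08 (difference 0.96 ± 0.11, adjusted p = 1.9e-05).

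**Figure D4:**
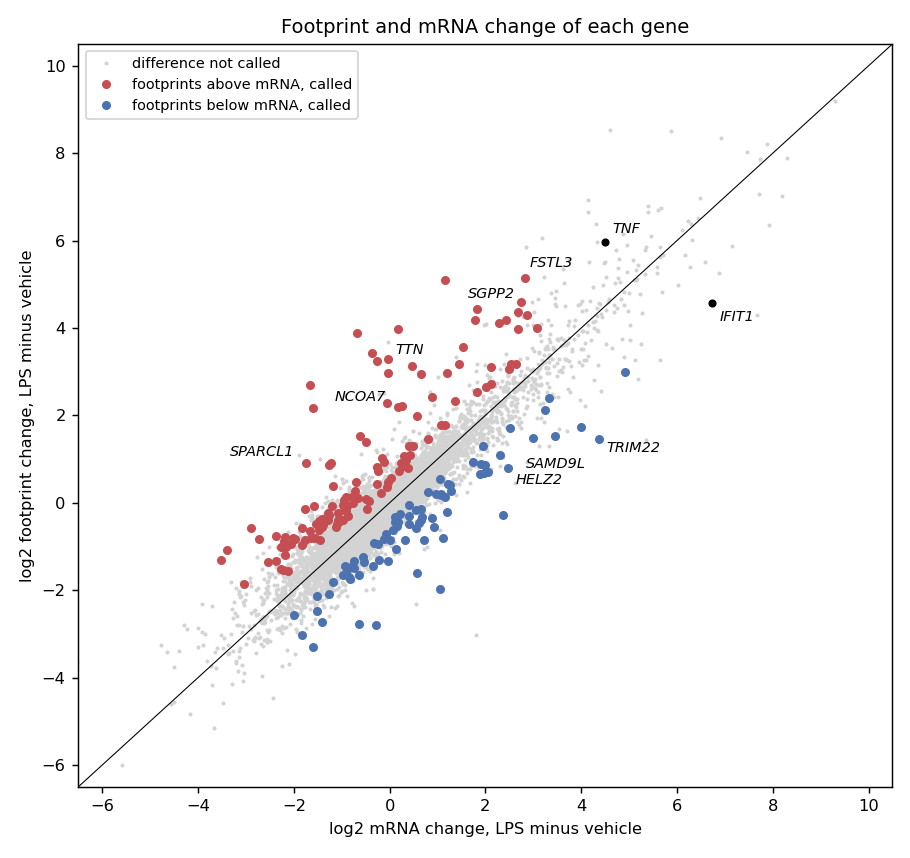
Log2 footprint change against log2 mRNA change, LPS minus vehicle, for 11944 genes, with the 208 genes whose difference passed the test in red (footprints above mRNA, 126) or blue (below, 82) and the line of equal change in black. TTN lies near 0 on the mRNA axis and at 3.30 on the footprint axis, and TNF and IFIT1 (black) did not pass in this fit, though TNF passed with the replicate block.

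The libraries numbered 4 differed from the others of their group by gene class, and in the same way in all 3 treatments for most classes. Members of the matrix protease and coagulation list lay above the mean of the other 4 libraries by a median log2 difference of 1.14 with vehicle, 1.44 with LPS and 1.80 with LPS and dexamethasone. For chemokines the values were 1.51 with vehicle, 1.257 with LPS and 1.66 with LPS and dexamethasone, and for cytokines 1.18 with vehicle, 1.66 with LPS and 1.53 with LPS and dexamethasone. Scavenger receptors, adhesion molecules, Fc and complement genes, endoplasmic reticulum chaperones and lysosomal enzymes were also above, the last by 0.69 with vehicle, 1.07 with LPS and 1.27 with LPS and dexamethasone. These lists are mostly of secreted, membrane and lysosomal proteins, and whether this has a part in the difference was not tested. Several lists of cytosolic and nuclear proteins lay near 0, among them proteasome subunits (0.09 with vehicle, 0.02 with LPS and 0.05 with LPS and dexamethasone), the NF-kB list (-0.04 with vehicle, 0.03 with LPS and -0.09 with LPS and dexamethasone) and glycolysis (0.01 with vehicle, 0.02 with LPS and 0.08 with LPS and dexamethasone). Other lists of such proteins did not: histones differed by -0.53 with vehicle, -0.27 with LPS and -0.12 with LPS and dexamethasone, cell cycle genes by -0.33 with vehicle, -0.16 with LPS and -0.27 with LPS and dexamethasone, and MAP kinase phosphatases and immediate early genes differed by 0.56 with vehicle, 0.21 with LPS and 0.24 with LPS and dexamethasone. IL1B was also high in replicate 4 of both groups. All these differences are of TMM-scaled CPM. By share of all counts the NF-kB list was lower in LPS replicate 4 (1.00%) than in the other LPS libraries (1.37 to 1.51%).

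Interferon-induced antiviral genes did not share this pattern. In replicate 4 they differed from the other libraries by 1.63 with vehicle, -0.44 with LPS and 0.12 with LPS and dexamethasone. Among the genes at least 4-fold higher in the fit without the libraries numbered 4, vehicle replicate 4 was placed on the log2 distance from the other vehicle to the other LPS libraries. It lay at a median of 8.03% of that distance over all 505 such genes, at 61.0% for 32 interferon-induced antiviral genes and at -1.16% for 15 genes of the NF-kB list. Of the antiviral genes 18 of 32 were past the midpoint, and of the NF-kB genes 0 of 15. For cytokines (27 genes) and chemokines (20) the medians were 29.8% and 32.0%. What made these libraries differ was not tested.

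**Figure D5:**
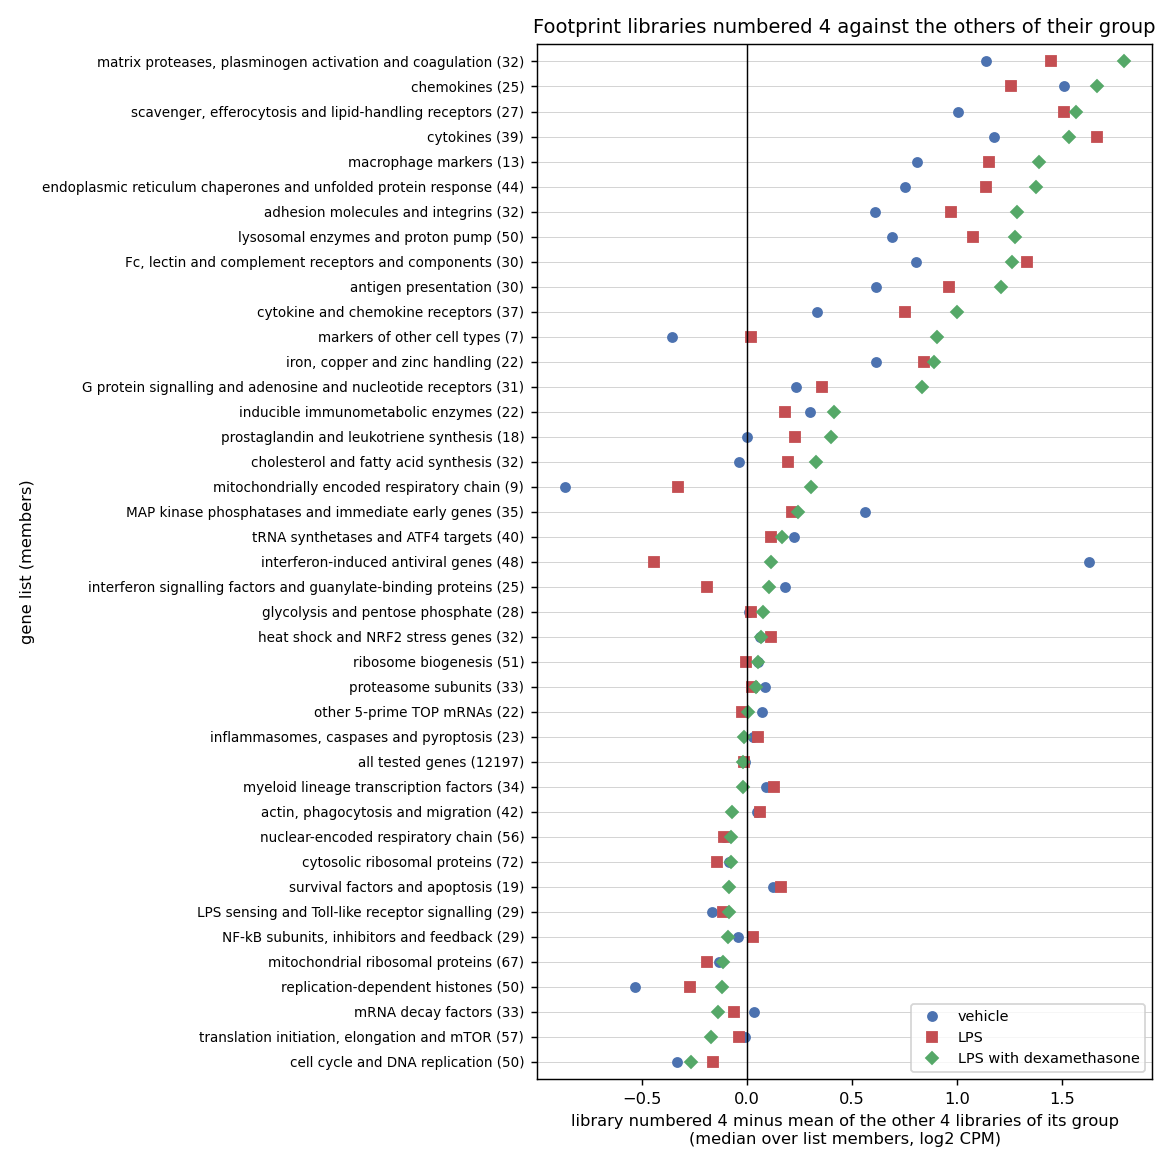
Median over each gene list of the log2 CPM in the footprint library numbered 4 minus the mean of the other 4 libraries of its group, for vehicle (circles), LPS (squares) and LPS with dexamethasone (diamonds), with the number of genes in brackets. Protease, chemokine, scavenger and cytokine lists lie at or above 1 in all 3 treatments, proteasome and glycolysis lists near 0, and interferon antiviral genes at 1.63 with vehicle and -0.44 with LPS.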

How the data were processed

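The authors deposited raw counts per Ensembl gene for 15 footprint and 12 poly(A) mRNA libraries, unpooled and unscaled. Per the submitters' processing notes, the tools were DESeq2 1.26.0, featureCounts 2.0.1, STAR 2.7.10a and Bowtie2 2.4.5, on GRCh38/hg38. Annotation, counted feature, strand setting and use of multiple matches were not given in the sources used here, so close paralogs are uncertain. Symbols were found for 19827 of 20453 identifiers, with 6 symbols on more than 1. Positions are those of RefSeq genes (GRCh38.p14).

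From these counts edgeR 4.0.16 (R 4.3.3) fitted all 15 footprint libraries (filterByExpr with minimum count 10 and total 15, TMM, 2-sided quasi-likelihood F test, Benjamini-Hochberg adjustment over all tested genes, called under 0.05), the 12 mRNA libraries likewise, and the footprint minus mRNA change as an interaction over all 27. SE is the log2 change over the square root of F. Shares use plain library totals. The footprint test was checked on simulated data, where it called 65.0% of 100 genes changed 2-fold, 93.0% of 100 changed 4-fold and 0.0505% of 11880 unchanged genes. The simulated counts were independent between genes, few genes changed, as many up as down, and no library stood apart. The data differ in each of these respects, so these rates do not carry over to the calls given here. Depth limits mainly genes with few counts.

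Replicates differed beyond sampling noise, and no 2 libraries were identical. With treatment means removed, vehicle and LPS footprint libraries sharing a number had a correlation over 0.1 in 5 of 5 pairs (0.216 to 0.687), against 11 of 20 with different numbers. Over all 3 treatments, 15 of 15 pairs sharing a number passed 0.1, against 34 of 60 with different numbers. Once the libraries numbered 4 were removed, these were 3 of 12 and 2 of 36 (median correlations 0.05 and -0.02). The contrast thus rests mainly on the libraries numbered 4, and it does not show that other equal numbers are pairs. The number served as a block in an alternative fit.

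The members and the 40 gene lists (1438 genes; SOD2, IRG1, TCTP and AUF1 were unmatched) were chosen with earlier results of these data known. Named genes are the panel, the 10 strongest changes each way (called, no overlap, mean of 5 CPM or more), the 10 largest gains and losses in median CPM, up to 3 called members of a list each way, genes with at most 15 vehicle counts in all and at least 5 CPM in every LPS library, and the 5 largest differences from mRNA each way (called, mean of 5 CPM or more in both assays). ITGB2 and RPL7's counts were added after values were seen. Alternatives were DESeq2 1.42.0, RLE factors, only LPS and vehicle libraries, no filter, a filter of 1 CPM, limma 3.58.1 voom with library weights, the block, leaving out libraries, and library totals, the last chosen after seeing the data. Values of some list members are not reported here.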

Additional observations from a re-analysis of the deposited data

Results flagged for a closer look

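In 84 groups of 5 libraries (34 genes and 8 gene lists, vehicle and LPS) the highest or lowest library was compared with the rest on the log2 scale, and 37 groups held 1 library far from the others. The cut was one that about 1 in 20 single groups would pass by chance. The library was replicate 4 in 36 of the 37. The groups share the same libraries, so they are not independent, and the genes and lists were chosen with earlier results known. The number flagged is therefore a description and not a test.

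Among vehicle libraries replicate 4 was the highest for IL1B (5567 CPM), CXCL8 (4889.9 CPM), CXCL10 (5.77 CPM), CCL3 (642 CPM), IFIT1 (40.3 CPM), IFIT2 (10.2 CPM), ICAM1 (1903 CPM) and CD44 (1118 CPM), and the lowest for CX3CR1 (18.4 CPM), CD14 (31.8 CPM) and H1-3 (32.2 CPM). Among LPS libraries it was the highest for TNF (9782 CPM), CXCL8 (53671 CPM), CCL3 (20350.1 CPM), PTGS2 (4129 CPM), TSLP (571 CPM), IL23A (652 CPM), ICAM1 (16780.3 CPM), CD44 (11330.1 CPM) and TREM2 (651 CPM), and the lowest for CXCL10 (129 CPM) and CXCL9 (6.44 CPM).

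In the share of footprint counts, vehicle replicate 4 was high for cytokines (1.22%), chemokines (0.626%), interferon-induced antiviral genes (0.498%), lysosomal genes (4.86%) and scavenger receptors (1.68%), and low for ribosomal proteins (1.37%) and histones (0.112%). LPS replicate 4 was high for chemokines (8.26%), lysosomal genes (4.29%) and scavenger receptors (1.10%), and low for the NF-kB list (1.00%), interferon-induced antiviral genes (0.589%), ribosomal proteins (1.31%) and histones (0.0530%). The other case was NFKBIA in vehicle replicate 5 (243 CPM), below the other vehicle libraries. What sets replicate 4 apart was not tested.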

How the results depend on the processing

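The number of footprint genes changed (6416) lay between 5959 and 6693 when any 1 LPS or vehicle footprint library was left out, at 6388 with RLE factors, 6372 without a filter, 6660 by DESeq2 and 8514 by limma voom with library weights, and no gene called in both fits changed direction under any of these settings. Single libraries of LPS with dexamethasone were not left out. Library totals in place of TMM, chosen after seeing the data, gave 1163 higher and 5257 lower genes, and 2693 at least 2-fold lower against 1342. This setting also turned the small rises of UQCRFS1, COX7A2 and ATP6V1E1 to -0.068, -0.13 and -0.23 and ended the calls of 21 of 234 named genes. With the replicate block 1 named gene was gained and none lost, and 25 of 80 list counts grew by over 1.5 times. Without the libraries numbered 4, 27 grew and 1 shrank.

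DESeq2 gave no adjusted p for 13 of the 234 named genes, TNF, CCL3, IFIT1, TSLP, IL23A and MERTK among them. Genes without an adjusted p count as not called in its list counts. It called 24 cytokines higher against 30, 16 chemokines against 22 and 34 antiviral genes against 41. Scavenger and lipid-handling genes called lower were 3 against 5.

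The number of genes whose footprint change differed from the mRNA change (208, 126 above and 82 below) was the least stable. It was 897 with the replicate block (490 above, 407 below), 581 without the libraries numbered 4 (351 and 230) and 134 with only the LPS and vehicle libraries (39 below). Leaving out 1 LPS or vehicle library at a time gave 135 to 283 in all and 51 to 99 below, and the cause was not tested. Without LPS mRNA replicate 1 the total was 135, and the count below fell to 51 without it, 52 without LPS mRNA replicate 2, 53 without vehicle mRNA replicate 4 and 54 without LPS footprint replicate 3. Genes with few counts, such as IFNL1, CXCL9 and IFNB1 with vehicle, have fold changes that depend on single counts.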
